A study of Mus musculus with 3 samples.

Results

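Sestrin 1 (Sesn1), its paralog Sesn3, the transcription factors Foxo1 and Foxo3 and 5 genes known as FoxO targets (Ccng2, Irs2, Pik3ip1, Txnip and Bcl6) were followed across 3 arrays of mouse macrophages. These 9 genes were selected by their symbols in the array's annotation, out of 19938 genes with a probe set of their own. The set was chosen from an earlier reading of these same arrays, because Sesn1 was lower with intralipid than with PBS while its paralog Sesn2 was higher. The values of those genes in that comparison are therefore a description, and none of the comparisons is independent of the choice, since all share arrays.

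The cells were peritoneal macrophages of male Angptl4-/- mice (C57Bl/6J), an inbred strain, collected 3 days after an injection of 4% thioglycollate, an irritant that recruits macrophages into the peritoneal cavity. The deletion of Angptl4 was shared by all 3 groups, the age of the mice was not given in the sources used here, and no wild-type cells were analysed here. After 2 days in culture, one group received phosphate-buffered saline (PBS) for 6 h. Another received intralipid, a triglyceride emulsion, at 0.5 mM triglyceride for 6 h. A further group received the same intralipid together with recombinant mouse ANGPTL4, a secreted inhibitor of lipoprotein lipase, at 2.5 µg/mL, with 1.5 h of pre-incubation, a step for which the labels name no control in the remaining groups. RNA of 3 samples was pooled onto 1 array, so that no spread between cultures could be measured, differences carry neither a test nor a p-value. The comparisons ask how these genes differed under a triglyceride load and whether added ANGPTL4 altered that.

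FoxO factors are transcription factors that act in the nucleus while insulin and growth factor signalling is low. When PI3 kinase and AKT are active, AKT phosphorylates FoxO proteins and they are kept in the cytoplasm, so that their target genes, many of them for growth arrest, stress defence and nutrient saving, lose this input. Sestrins are stress-induced proteins that bind the GATOR2 complex and thereby restrain mTORC1, the kinase that couples amino acid supply to growth. Sesn1 is known as a target of p53 and of FoxO factors, Sesn3 as a FoxO target and Sesn2 as a target of the stress factor ATF4.

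The promoter windows are shown first because they hold the only sequence information on which the members can be compared. RefSeq's table (GRCm38.p6) gave windows of 250 bases before to 50 bases after the annotated start for all 10 genes (the 9 members and Sesn2), 12 windows in all. They were searched on both strands for the FoxO binding element GTAAACA, its variant GTAAATA, the insulin response element CAAAACA and the E-box CACGTG, a motif bound by many basic helix-loop-helix factors. The windows printed are those of Sesn1 and Irs2, the members 2-fold apart between arrays, of Txnip, which holds the FoxO element, and of Sesn2, which holds none of the 4 motifs. Capitals mark the motifs. The Sesn1 window (its first of 2) lies at chr10:41810324-41810623 on the plus strand, that of Irs2 at chr8:11008880-11009179 on the minus strand, that of Txnip at chr3:96557707-96558006 on the plus strand and that of Sesn2 at chr4:132510407-132510706 on the minus strand.
Sesn1: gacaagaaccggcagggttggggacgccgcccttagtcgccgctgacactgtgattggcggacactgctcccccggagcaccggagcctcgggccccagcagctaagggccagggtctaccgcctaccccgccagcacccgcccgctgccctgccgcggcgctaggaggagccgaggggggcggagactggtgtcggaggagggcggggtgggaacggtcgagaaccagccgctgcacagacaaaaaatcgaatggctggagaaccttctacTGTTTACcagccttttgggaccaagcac
Irs2: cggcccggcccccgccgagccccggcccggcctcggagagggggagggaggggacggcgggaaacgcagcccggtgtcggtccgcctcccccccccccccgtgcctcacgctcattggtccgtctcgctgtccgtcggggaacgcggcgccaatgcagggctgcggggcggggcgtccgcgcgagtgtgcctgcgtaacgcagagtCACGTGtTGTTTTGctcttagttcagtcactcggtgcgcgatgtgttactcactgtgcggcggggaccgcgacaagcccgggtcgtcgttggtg
Txnip: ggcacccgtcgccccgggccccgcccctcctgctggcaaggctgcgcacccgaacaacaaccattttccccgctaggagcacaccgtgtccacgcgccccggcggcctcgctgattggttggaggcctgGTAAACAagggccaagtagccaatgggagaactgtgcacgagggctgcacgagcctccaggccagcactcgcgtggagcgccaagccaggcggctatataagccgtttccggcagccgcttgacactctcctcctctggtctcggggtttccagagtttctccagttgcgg
Sesn2: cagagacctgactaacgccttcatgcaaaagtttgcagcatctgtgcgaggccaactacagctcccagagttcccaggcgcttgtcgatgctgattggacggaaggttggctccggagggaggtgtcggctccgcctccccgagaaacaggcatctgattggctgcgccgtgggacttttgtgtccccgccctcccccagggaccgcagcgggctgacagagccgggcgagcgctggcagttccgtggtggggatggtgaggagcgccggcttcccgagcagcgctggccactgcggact

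The FoxO element occurred in 2 of the 10 genes. In Sesn1 it lay on the opposite strand, beginning at base 23 after the start. In Txnip it lay on the printed strand, beginning at base -121. Of all 27025 genes in the table, 4.05% had this element in at least 1 window. The variant GTAAATA occurred in 0 of the 10 genes and in 3.51% of all genes. The insulin response element occurred in Irs2 (from base -37) and in Ccng2 (from base -16), against 7.20% of all genes. The E-box occurred in Irs2 (from base -44) and in Bcl6 (from base -60), against 8.09% of all genes, and the E-box and the insulin response element of Irs2 did not overlap. A second window of Sesn1 and one of Bcl6 held none of the 4 motifs. A match describes letters in these windows only, and a missing match says nothing of a factor's binding elsewhere.

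Values are the deposited log2 expression values. They are compared between arrays within 1 gene, since probe sets of different genes do not share a scale. A gene is called higher or lower where its difference is at least 2-fold (1 on the log2 scale) and the higher array of the pair reached the expression floor, the middle value among annotated probe sets of that array (4.98, 4.97 and 4.97 on the PBS, intralipid and ANGPTL4 arrays). Each of the 9 members had 1 probe set. Of these, 8 passed the floor on all 3 arrays, and Pik3ip1 passed it on none. As for the labelled cell type, all 10 of 10 macrophage markers passed the floor, among them Adgre1, Csf1r and Cd68. None of the measured markers of B cells (4), of T and NK cells (4) or of mast cells (5) did. One marker each of neutrophils (S100a8), eosinophils (Siglecf), mesothelial cells (Wt1) and dendritic cells (Clec9a) passed it, and Clec9a did so with intralipid only (3.44, 5.00 and 3.32 on the PBS, intralipid and ANGPTL4 arrays). Its part in the results was not tested. The 1 erythroid marker measured was below the floor. Fibroblast markers passed it in 5 of 6 cases, with a log2 summed level of 11.17, 11.16 and 11.15 on the PBS, intralipid and ANGPTL4 arrays. Angptl4 itself was listed at 4.92 on each array, just below the floor. Over all genes past the floor, the robust SD of the log2 difference, from the central 68% of genes, was 0.20 for intralipid against PBS, 0.23 for ANGPTL4 with intralipid against intralipid and 0.10 for ANGPTL4 with intralipid against PBS. It describes how far apart genes lay on 2 arrays and is not a replicate error.

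Sesn1 (probe set 10362811) was the member with the lowest value relative to PBS on the intralipid array. Its log2 values were 8.66, 6.34 and 7.94 on the arrays with PBS, intralipid and intralipid plus ANGPTL4. The intralipid array was low, and the ANGPTL4 array lay between the other two. Sesn1 was 5.00-fold lower with intralipid than with PBS, the fifth-lowest difference among 10049 genes. With ANGPTL4 it was 3.03-fold higher than with intralipid alone (log2 difference 1.60) and 1.65-fold lower than with PBS (log2 difference -0.72). That last difference ranked 27 from the bottom among 9995 genes. In bulk RNA, fewer transcripts per cell and fewer cells that carry them cannot be told apart.

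The paralog Sesn2 did not share this pattern. Sesn2 (probe set 10516932), which is not a member, had log2 values of 5.76, 7.99 and 5.71 in the same order. Only its intralipid array was high, 4.68-fold above PBS and 4.86-fold above the ANGPTL4 array, and the ANGPTL4 array lay 0.05 below PBS on the log2 scale. Sesn3 (probe set 10583242) was listed at 5.04 on all 3 arrays, just above the floor, so its pattern cannot be judged. On the intralipid array Sesn1 was thus low and Sesn2 high, and Sesn3 was listed at the value it had on the other arrays.

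**Figure D1:**
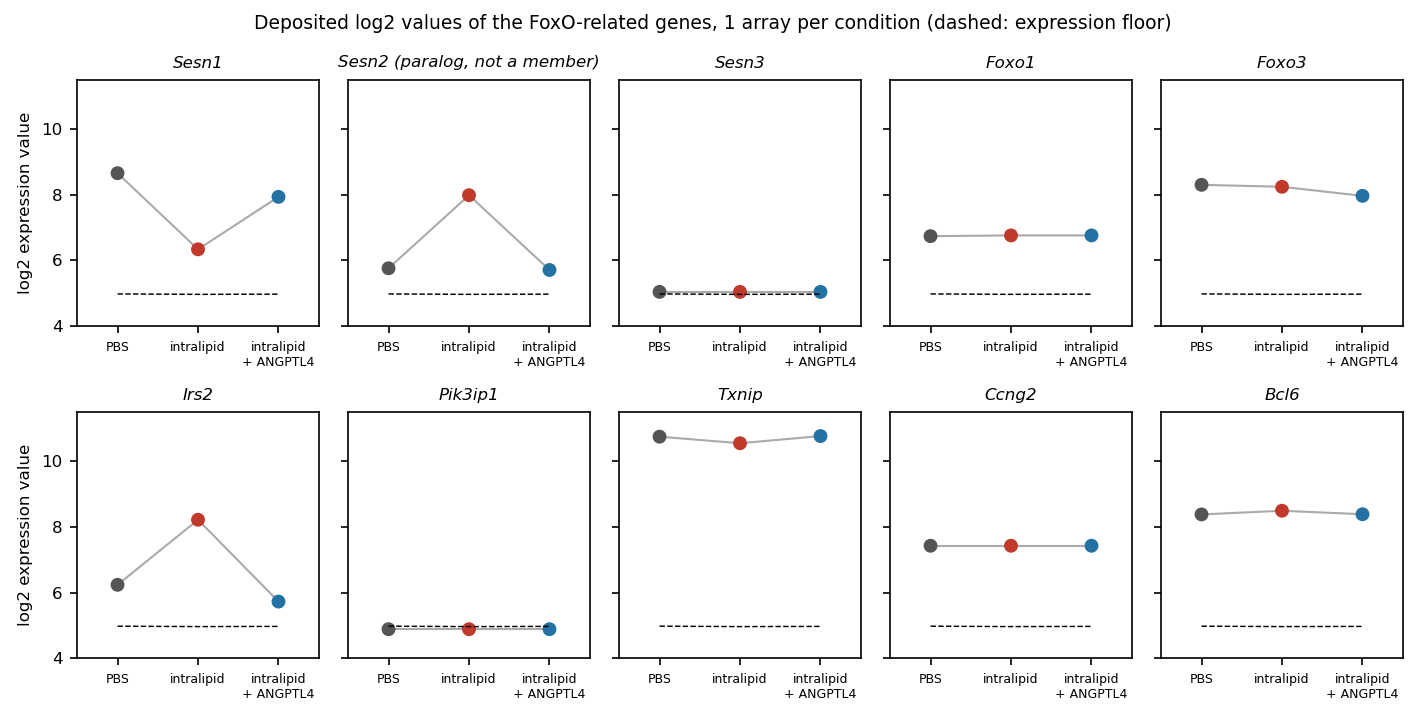
Log2 expression value (y axis) of the 9 genes and of Sesn2 on the PBS, intralipid and intralipid plus ANGPTL4 arrays (x axis), 1 point per array, with the expression floor as a dashed line. Sesn1 is low (6.34) and Irs2 (8.22) and Sesn2 (7.99) are high on the intralipid array, while Sesn3, Ccng2 and Pik3ip1 hold 1 value throughout.

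The transcription factors themselves differed little. Foxo1 (probe set 10491962) had log2 values of 6.74, 6.76 and 6.76 on the PBS, intralipid and ANGPTL4 arrays. Its differences from PBS were 0.02 on both other arrays, a size whose sign turned when arrays were centred on their medians. Foxo3 (probe set 10368888) had 8.30, 8.25 and 7.97. Its array with ANGPTL4 was the lowest, 1.26-fold below PBS (log2 difference -0.34) and 1.21-fold below intralipid alone (-0.28), and 7.68% of the genes past the floor differed from PBS by as much or more on that array. Among the factors outside the set, Foxo4 was listed at 6.81 on all 3 arrays and Foxo6 at 4.35, below the floor. FoxO proteins are controlled mainly through phosphorylation and location, which these arrays do not measure.

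Among upstream components, Irs2 (probe set 10576971), the adaptor that links the insulin receptor to PI3 kinase, was the other member that was called. Its log2 values were 6.24, 8.22 and 5.73 in the same order of arrays. The intralipid array was high and the ANGPTL4 array was the lowest. Irs2 was 3.95-fold higher with intralipid than with PBS, which ranked 76 from the top among 10049 genes. With ANGPTL4 it was 5.63-fold lower than with intralipid alone (log2 difference -2.49, ranked 41 from the bottom among 10064 genes) and 1.42-fold lower than with PBS (-0.51). Irs1, the related adaptor, lay below the floor on every array (3.94, 3.88 and 3.88). Pik3ip1 (probe set 10373740), which encodes a membrane protein that inhibits PI3 kinase, was listed at 4.89 on all 3 arrays, also below the floor, so that it gives no information on these cells.

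Of the remaining targets, Txnip and Bcl6 stayed within a narrow range. Txnip (probe set 10494428), an arrestin-fold protein that binds thioredoxin and restrains glucose uptake, had log2 values of 10.76, 10.56 and 10.77. Its intralipid array was the lowest, 1.15-fold below PBS and 1.16-fold below the ANGPTL4 array. In each of these comparisons many genes past the floor differed as much or more (34.8% and 35.9%). Bcl6 (probe set 10438738), a zinc finger repressor that dampens inflammatory genes in macrophages, had 8.39, 8.50 and 8.39, so that the intralipid array was 1.08-fold above PBS. Ccng2 (probe set 10523297), an unconventional cyclin tied to growth arrest, was listed at 7.43 on all 3 arrays.

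Of the 9 members, 3 (Sesn3, Ccng2 and Pik3ip1) held 1 identical value on the 3 arrays, and 2 of these were past the floor. Among all genes past the floor on at least 1 array, 25.1% were identical on all 3. An identical summary value is not read here as an equal transcript level.

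Counted together, the 8 members past the floor did not lie in 1 direction. Between intralipid and PBS, 1 (Irs2) was at least 2-fold higher, where 2.51% of all 10049 genes were, and 1 (Sesn1) at least 2-fold lower, where 1.32% were. Because these genes were chosen from this comparison, nothing is read from those counts. Between ANGPTL4 with intralipid and intralipid alone, Sesn1 was called higher (2.53% of 10064 genes were) and Irs2 lower (2.30% were). Between ANGPTL4 with intralipid and PBS, 0 members were called in either direction, against 0.85% of 9995 genes higher and 0.04% lower. The median log2 difference of the 8 members was 0.00 in each of the 3 comparisons, as was the median over all genes past the floor.

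**Figure D2:**
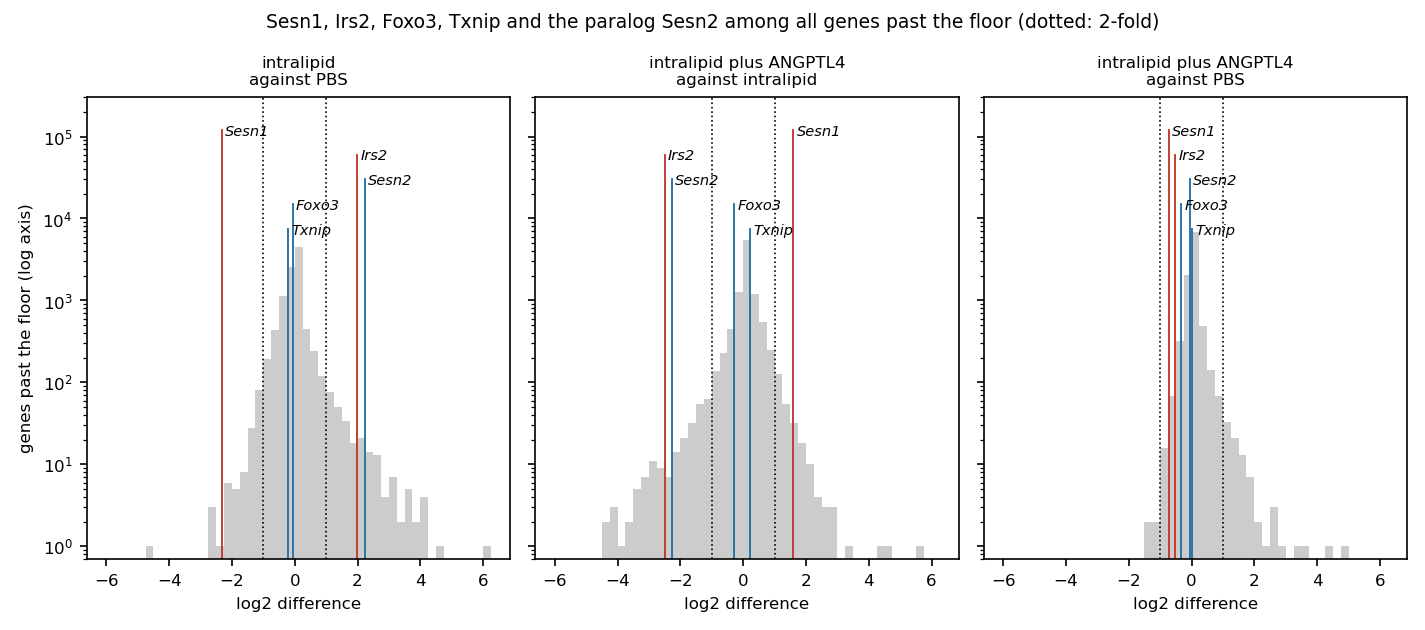
Number of genes past the floor (y axis, log scale) by log2 difference (x axis) in the 3 comparisons, with vertical lines at Sesn1, Irs2, Foxo3, Txnip and the paralog Sesn2 (line height carries no value) and dotted lines at 2-fold. Sesn1 (-2.32) and Irs2 (1.98) lie in opposite tails for intralipid against PBS. They exchange sides for intralipid plus ANGPTL4 against intralipid (1.60 and -2.49). For intralipid plus ANGPTL4 against PBS both lie on the lower side, within the 2-fold lines (-0.72 and -0.51). Foxo3 and Txnip lie within the 2-fold lines in all 3 panels.

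The genes with the pattern nearest to that of Sesn1 were sought among 9785 other named genes past the floor on at least 1 array, by the Euclidean distance between their log2 differences from PBS on the other 2 arrays. With 3 arrays this is a description of likeness only. The 5 nearest were Frmd4b (distance 0.36), Tmem50b (0.36), Lpcat1 (0.37), Tifab (0.38) and Chst12 (0.45). Lpcat1 encodes a lysophosphatidylcholine acyltransferase and Chst12 a chondroitin sulfotransferase. Frmd4b had log2 values of 8.12, 6.15 and 7.34, and Tmem50b had 10.31, 8.24 and 9.86. All 5 were lowest on the intralipid array (3.91-fold to 4.29-fold below PBS) and lay between both levels with ANGPTL4 (1.25-fold to 1.71-fold below PBS).

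**Figure D3:**
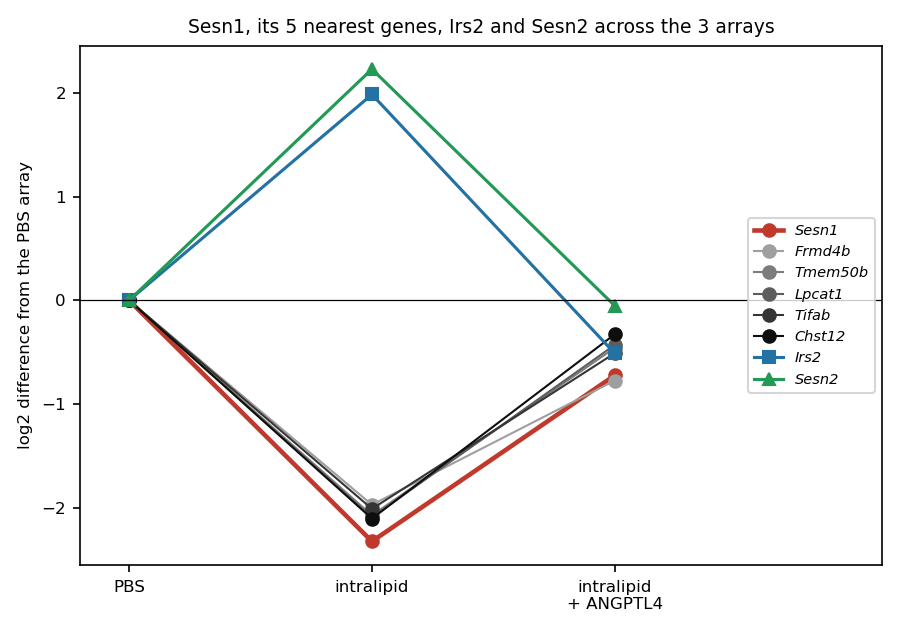
Log2 difference from the PBS array (y axis) on each of the 3 arrays (x axis) for Sesn1 (red), its 5 nearest genes (grey to black), Irs2 (blue squares) and Sesn2 (green triangles). Sesn1 and its neighbours lie near -2 on the intralipid array (-2.32 for Sesn1), and Irs2 and Sesn2 near 2 (1.98 and 2.23).

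Known FoxO targets outside the 9 members were counted next. Of 49 such genes in 4 lists, 46 were measured and 36 passed the floor in the comparison of intralipid with PBS, where 6 were at least 2-fold higher and 0 lower, against 2.51% and 1.32% of all genes. In all, 18 of the 36 lay above PBS, 13 below and 5 at the same value, with a median log2 difference of 0.01. Of all 10049 genes, 2357 lay above PBS, 4465 below and 3227 at the same value. The 6 were Gadd45a, Btg1, Klf4, Mxi1, Fbxo32 and Ppargc1a. Of these, Ppargc1a passed the floor on the intralipid array only, so it was counted only because that array was high. At 1.5-fold, 1 gene was lower, Rbl2 (-0.60), a pocket protein that represses cell cycle genes. Nothing is called particular to the lists from such counts, and several of these genes are known to respond to other stress and growth signals too.

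The growth arrest list held 4 of the 6. Gadd45a, a stress sensor of growth arrest, had log2 values of 8.99, 10.88 and 9.23 on the PBS, intralipid and ANGPTL4 arrays, 3.71-fold higher with intralipid than with PBS. Btg1, an antiproliferative factor, had 10.62, 12.27 and 11.21. Klf4, a zinc finger transcription factor, had 6.20, 7.51 and 5.92, and Mxi1, an antagonist of Myc, had 7.45, 8.71 and 7.15. Each of these 4 was highest on the intralipid array. Btg1 was 1.50-fold above PBS with ANGPTL4. In all 4, of 10 list genes past the floor, the ANGPTL4 array was at least 2-fold below the intralipid array. Of all genes, 2.3% were called lower in that comparison. These 4 were named as high on the intralipid array, which both comparisons share, so a lower ANGPTL4 value was favoured in advance. The cyclin-dependent kinase inhibitor Cdkn1b, a classical FoxO target, was listed at 7.33 on all 3 arrays.

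In the list of antioxidant defence and autophagy, 1 of 13 genes past the floor was 2-fold higher with intralipid than with PBS (2.51% of all genes were). Fbxo32, a ubiquitin ligase known for muscle atrophy, had 9.52, 11.67 and 9.87 and was 4.42-fold higher with intralipid. Sod2, the mitochondrial superoxide dismutase, behaved differently, with 9.27, 9.11 and 11.07. Only its ANGPTL4 array was high, 3.89-fold above intralipid alone and 3.47-fold above PBS. Sod2 was also the 1 gene of the 35 pooled FoxO targets past the floor that was called between ANGPTL4 with intralipid and PBS. Of all genes, 0.85% were called higher in that comparison.

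In the list of metabolism, signalling and trafficking, 1 of 8 genes past the floor was 2-fold higher with intralipid than with PBS (2.51% of all genes were). The list's median log2 difference was 0.28 for intralipid against PBS, with 7 genes higher and 1 lower (2357 and 4465 of all 10049 genes). For ANGPTL4 with intralipid against intralipid alone it was -0.47, with 1 higher and 7 lower (4662 and 2319 of all 10064 genes). Both comparisons share the intralipid array and are not independent. Ppargc1a, a coactivator of mitochondrial genes, had 4.05, 7.06 and 4.12. It was below the floor without intralipid and with ANGPTL4, so its 8.06-fold difference from PBS comes to 4.24-fold against the floor itself. Ppargc1a entered the counts and medians of this list only through its high intralipid array, so its direction there was fixed by the floor rule. Tsc22d3, the glucocorticoid-induced leucine zipper, had 6.87, 7.36 and 6.38. Its ANGPTL4 array was 1.97-fold below intralipid alone, short of the threshold except under quantile normalization (log2 difference -1.03). Pck1, G6pc and Igfbp1, the liver targets by which FoxO1 is best known, were below the floor on all arrays. Of the cell death list, 0 of 5 genes past the floor were called in any comparison. Of all genes, 2.51% were called higher and 1.32% lower for intralipid against PBS. With ANGPTL4 these shares were 2.53% and 2.3% against intralipid alone, and 0.85% and 0.04% against PBS. Nothing is read from a count of 0 in so few genes. The widest difference of the cell death list was in Pmaip1, which promotes apoptosis, with 6.43, 6.83 and 6.17.

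Components upstream of FoxO were mixed. In the insulin, PI3 kinase and AKT list, 23 of 25 measured genes passed the floor. Of these, 2 were 2-fold higher with intralipid than with PBS (2.51% of all genes were) and 1 lower (1.32% were), with a median log2 difference of -0.11. Trib3, a pseudokinase that binds AKT, had log2 values of 5.59, 8.25 and 5.42. Phlpp1, a phosphatase that removes an activating phosphate from AKT, had 5.39, 6.93 and 5.64. Both were high on the intralipid array, by 6.32-fold and 2.91-fold over PBS. Pik3cd, the catalytic subunit p110 delta of leukocyte PI3 kinase, had 7.69, 6.50 and 7.59 and was 2.27-fold lower with intralipid. Pik3cg, the gamma subunit, had 8.94, 8.30 and 9.88 and its ANGPTL4 array was 2.97-fold above the intralipid array. Its regulatory subunit Pik3r5 had 8.93, 9.75 and 9.60. The kinases Akt1 and Akt2, which act on FoxO proteins directly, were not called in any comparison (9.52, 9.41 and 9.49 for Akt1, and 9.07, 8.99 and 8.99 for Akt2). With ANGPTL4 against intralipid alone, 2 genes of the list were called higher (Pik3cd and Pik3cg) and 2 lower (Trib3 and Phlpp1), with a median of 0.09. Of all genes, 2.53% were called higher and 2.3% lower in that comparison. It shares the intralipid array with the comparison to PBS, so the 2 sets of calls are not independent. With ANGPTL4 against PBS, 0 genes of the list were called, against 0.85% of all genes higher and 0.04% lower.

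Among 23 genes for regulators of FoxO proteins, 1 was 2-fold lower with intralipid than with PBS (1.32% of all genes were) and 0 higher (2.51% were), with a median of -0.07. Stk4, the kinase MST1 that phosphorylates FoxO under oxidative stress, had 8.72, 7.70 and 8.55, a log2 difference of -1.01 that fell just short under quantile normalization and cyclic loess. Mdm2, a ubiquitin ligase of p53 and FoxO, had 8.98, 9.97 and 9.34, just short of 2-fold between intralipid and PBS. The nuclear exporter Xpo1 had 8.65, 9.44 and 8.64. In the other 2 comparisons, 0 of these genes were called. Of all genes, 2.53% were called higher and 2.3% lower with ANGPTL4 against intralipid alone. Against PBS these shares were 0.85% and 0.04%, so nothing is read from the count of 0.

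**Figure D4:**
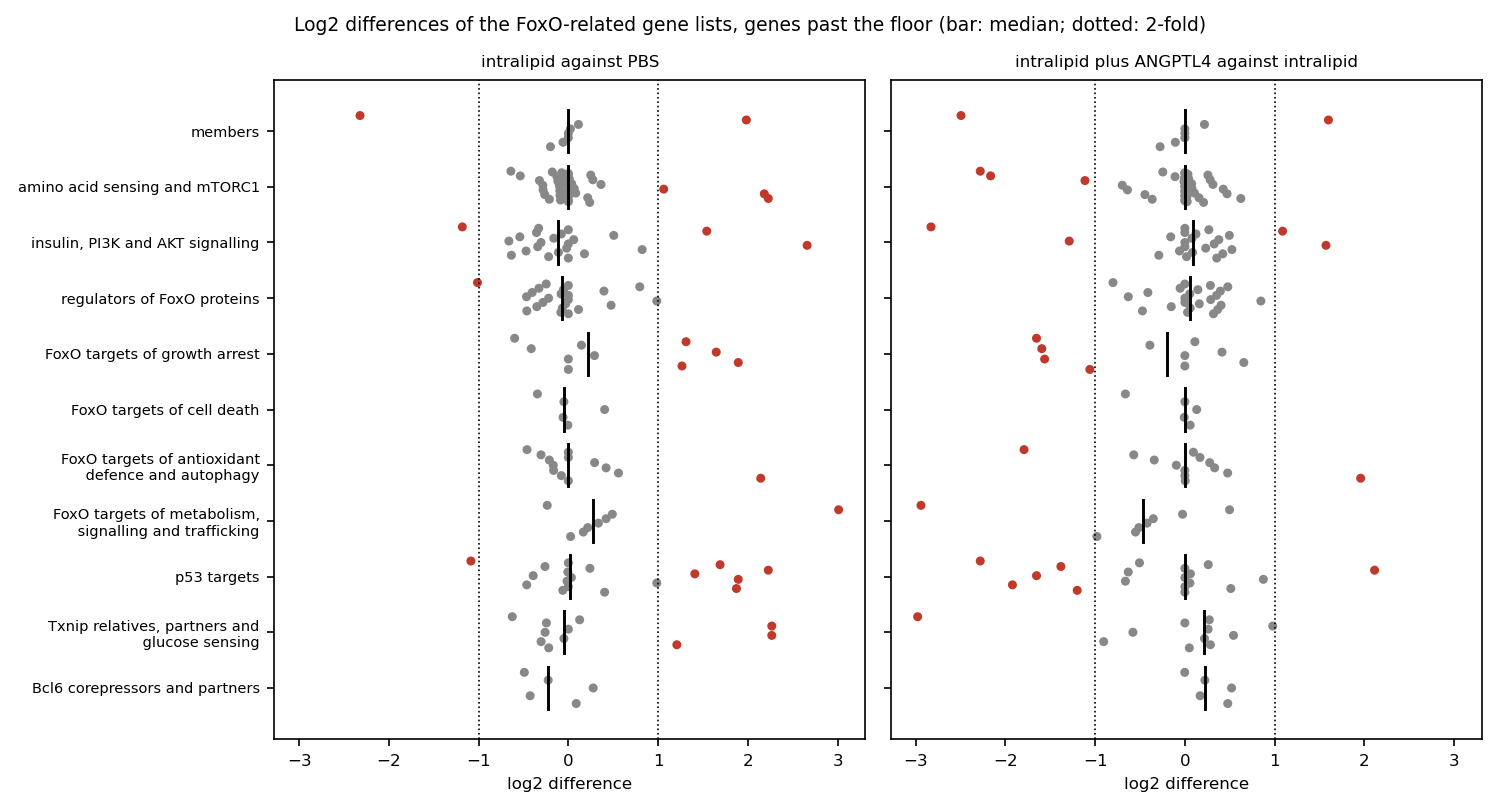
Log2 difference (x axis) of the genes past the floor in each list (y axis; 1 point per gene, red where at least 2-fold apart, vertical bar at the list median, dotted lines at 2-fold), for intralipid against PBS on the left and for intralipid plus ANGPTL4 against intralipid on the right. Called FoxO targets of growth arrest lie to the right on the left panel (Gadd45a at 1.89) and to the left on the right panel (-1.65). The list medians range from -0.22 to 0.28 on the left panel and from -0.47 to 0.22 on the right.

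The list of amino acid sensing and mTORC1 genes holds the complexes that sestrins act on and other inputs to mTORC1. Of 41 genes past the floor, 3 were at least 2-fold higher with intralipid than with PBS (2.51% of all genes were) and 0 lower (1.32% were). The ANGPTL4 array was at least 2-fold below the intralipid array in 3 (2.3% of all genes were), and the median was 0.00 in both comparisons. Both comparisons share the intralipid array, so genes high on it were favoured in advance to be lower with ANGPTL4. Sesn2 was among the called genes, and its call was known beforehand from the choice of members. Besides Sesn2 they were Ddit4, an inhibitor of mTORC1 under stress (5.37, 7.55 and 5.39), and Castor1, an arginine sensor that also acts on GATOR2 (6.14, 7.20 and 6.09). All 3 were high on the intralipid array alone, and with ANGPTL4 their log2 differences from PBS were -0.05 (Sesn2), 0.02 (Ddit4) and -0.05 (Castor1). Prkag1, a regulatory subunit of AMP-activated kinase, had 8.83, 8.19 and 8.81. Fnip2, a partner of folliculin, had 10.35, 10.56 and 9.87. Of the GATOR2 subunits, Wdr24, Wdr59 and Seh1l were each listed at 1 identical value on all 3 arrays, Mios had 5.95, 5.67 and 6.14, and Sec13 had 7.66, 7.55 and 7.75. The kinase Mtor was also listed at 1 identical value.

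Sesn1 is also a p53 target, and other p53 targets were set beside it. Of 18 past the floor, 5 were 2-fold higher with intralipid than with PBS (2.51% of all genes were) and 1 lower (1.32% were), with a median of 0.02. The higher ones were Sesn2, Gadd45a, Btg2 (6.80, 8.68 and 6.75), Plk3 (6.95, 8.64 and 7.44) and Plk2 (10.40, 11.81 and 10.42). The call of Sesn2 was known beforehand, since its rise was part of the reason for choosing the members. Btg2 is antiproliferative, and Plk2 and Plk3 are polo-like kinases. The 1 lower gene, beside Sesn1 itself, was Trp53inp1, a p53-induced nuclear protein, with 8.83, 7.74 and 8.62. Plk2 and Trp53inp1 were named after their values were seen, to complete the count. Ccng1, the paralog of Ccng2, had 9.80, 9.53 and 9.80 and was not called. With ANGPTL4 against intralipid alone, those 5 genes were 2-fold lower (2.3% of all genes were). They had been counted as high on the intralipid array, which both comparisons share, so this direction was favoured in advance. Fas, a death receptor, was the 1 gene higher (5.28, 4.89 and 7.005), where 2.53% of all genes were. The intralipid value of Fas was just under the floor, and its difference is 4.33-fold, or 4.11-fold against the floor. It was also 3.30-fold above PBS, the 1 gene of this list called in that comparison (0.85% of all genes were called higher). Trp53 itself and Cdkn1a were not analysed here.

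Relatives and partners of Txnip and glucose sensing genes form the next list. Of 11 genes past the floor, 3 were 2-fold higher with intralipid than with PBS (2.51% of all genes were) and 0 lower (1.32% were). The list's median was -0.05. Arrdc3, another arrestin-fold protein, had log2 values of 8.32, 10.59 and 7.61. It was 4.81-fold higher with intralipid than with PBS and, with ANGPTL4, 7.87-fold lower than with intralipid alone and 1.64-fold lower than with PBS. Like Irs2, its intralipid array was the highest and its ANGPTL4 array the lowest. Arrdc4, which shares glucose-responsive control with Txnip, had 7.54, 7.67 and 7.94. The further relatives Arrdc1 (7.03, 6.81 and 7.03) and Arrdc2 (5.81, 5.76 and 5.81) were not called. The glucose transporter Slc2a1 had 9.97, 11.18 and 10.28. Nlrp3, the inflammasome sensor that Txnip is known to bind, had 5.19, 7.46 and 6.88 and remained 3.22-fold above PBS with ANGPTL4. Txnrd1, a thioredoxin reductase, had 10.22, 9.92 and 10.90, highest with ANGPTL4. Mlxip, a glucose-sensing transcription factor upstream of Txnip, had 6.87, 6.24 and 6.78. In the list of Bcl6 corepressors and partners, 0 of 5 genes past the floor were called in any comparison (median -0.22 for intralipid against PBS). Of all genes, 2.51% were called higher and 1.32% lower for intralipid against PBS. With ANGPTL4 these shares were 2.53% and 2.3% against intralipid alone, and 0.85% and 0.04% against PBS. Nothing is read from a count of 0 in so few genes. The paralog Bcl6b was below the floor.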

How the data were processed

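Per the labels' protocols, total RNA with an integrity number above 8 was pooled from 3 samples per group, and 100 ng of it was biotin-labelled by a whole-transcript method and hybridised to 1 Affymetrix array per group. Each probe set has a deposited log2 value, which the authors made with RMA per the submitters' processing notes. For its version, the chip definition and the genome build, the labels and notes used here state nothing. The table held 35556 probe sets. GEO's platform annotation gave 1 symbol to 21789, several to 1621 and none to 12146. Genes were read from probe sets with 1 symbol, taking the highest mean per gene, which left 19938 genes, 19856 of them found by gene identifier in the RefSeq table. Values were used without further normalization, and 41.4% of probe sets did not differ at all between the arrays. The number of arrays limits the precision.

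Differences were computed with Python 3.11.15, pandas 2.3.3 and numpy 2.4.6, and normalization alternatives with R 4.3.3 and limma 3.58.1. The counting was tested on simulated data, with planted differences all past 2-fold in genes well above the floor. That test does not cover genes near the floor or near the threshold. The members and all gene lists were chosen with earlier results of these data known. Named were all members and their paralogs, Angptl4, up to 4 genes per list and comparison with the widest differences of at least 1.5-fold, and the 5 genes nearest to Sesn1. A few further genes are named to complete a count or to give a list's unchanging or undetected members, and these were picked after their values were seen. Of the members, all had a probe set and a RefSeq promoter window.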

Additional observations from a re-analysis of the deposited data

How the results depend on the processing

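Each member's log2 difference was recomputed under 10 alternative settings (a threshold of 1.5-fold or of 3-fold, the floor removed or raised to the 75th percentile, arrays centred on their medians, quantile normalization, cyclic loess, the mean over probe sets of a gene, the probe set with the lowest mean, and identical probe sets left out). Of 261 recomputed member differences, 260 kept their side of the threshold, and 0 called differences changed sign. The exception was Sesn1 with ANGPTL4 against PBS, which was called lower at 1.5-fold (log2 difference -0.72), so that the count of members lower there became 1. Much of this agreement was fixed in advance. Each member had 1 probe set, so the mean and the lowest probe set gave the same values. The threshold and floor settings leave differences as they are, and leaving out identical probe sets only removed members. Only centring, quantile normalization and cyclic loess could move a member's difference. Sesn1 with intralipid against PBS ranged from -2.36 to -2.31, and Irs2 from 1.948 to 1.995. The median of the members with ANGPTL4 against PBS moved from 0.00 to -0.16 when identical probe sets were left out, since fewer members remained. With the floor at the 75th percentile, Ppargc1a, Phlpp1, Fas and Tifab lost at least 1 call, as did Nlrp3 against PBS, because their values did not reach it. With no replicates, a move of a median was judged against the robust SD over genes.

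At 1.5-fold, the counts over all genes were 509 higher and 560 lower for intralipid against PBS, 831 and 498 for ANGPTL4 with intralipid against intralipid, and 237 and 53 against PBS. At 3-fold they were 117 and 20, 59 and 102, and 25 and 0 in the same order. Without replicates, no setting bears on the spread between cultures. No paired analysis was possible because each group had 1 array.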
